A study of Mus musculus with 18 samples.

Results

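The lysosomal genes examined here are a list of 33 genes for proteins of the lysosome, chosen by their known role, with no measured difference in the rule. Earlier results of these data were known when the list was chosen. They comprise 9 proteases, 8 glycosidases and lipid hydrolases, 4 lipid transfer and activator proteins, 7 membrane proteins and channels, and 5 subunits or partners of the V-ATPase. The array carried 73 probes for them. A probe was used if its detection p was under 0.05 on 3 or more of the 18 arrays, as for 67 probes. They represent 32 of the 33 genes, among 14581 genes tested in all. The gene left out, Ctsl (cathepsin L), had 1 probe, which was detected on 2 arrays, spleen CD8 replicate 1 and tumour Tconv replicate 2.

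T cells had been sorted from B16 melanoma tumours and from spleens of female C57BL/6 mice of the genotype Foxp3-GFP-DTR-CD90.1, an allele that makes cells expressing Foxp3 visible and removable. All mice had received 50000 B16F10 cells, a transplantable melanoma line, under the skin, and tissue was taken at a tumour diameter of about 10 mm, so that the spleens came from tumour-bearing mice as well and no tumour-free animal serves as control. Regulatory T cells (Treg) were gated as CD4+CD25+Foxp3+, conventional CD4 T cells (Tconv) as CD4+Foxp3-, and CD8 T cells as CD8+CD4-. Cells positive for CD11b, an integrin chain of myeloid cells, were gated out in every sort. The 6 groups (3 populations from tumour or spleen) had 3 replicates each. Cells were pooled before sorting. The labels state neither the age of the mice nor whether the replicates of a group are separate pools of animals, so a p-value here weighs a difference against the spread among these arrays, which may be technical. From 2.5 ng of RNA a sample, amplified copies were labelled with biotin and hybridised to 3 Illumina BeadChips, each with 1 array of every group. Since each group held the same position on every BeadChip, group and position cannot be told apart.

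Lysosomes are acidic vesicles in which proteases, glycosidases and lipases break down material taken up by endocytosis or delivered by autophagy. The V-ATPase pumps protons into them, heavily glycosylated membrane proteins such as LAMP1 and LAMP2 line them, and transfer proteins carry lipids to the hydrolases and out of the organelle. In T cells, secretory lysosomes also store cytotoxic granule proteins, and the organelle is a platform for nutrient sensing by mTORC1. Many lysosomal genes are under control of the transcription factors TFEB and TFE3, which bind a palindromic E-box known as the CLEAR element.

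Promoter windows of 300 bases, from 250 before to 50 after the transcription start, were read from RefSeq (build GRCm38.p6) for 28 of the 33 genes. They were searched on either strand for TCACGTGA, the core of the CLEAR element, for TCACGTG and for CACGTG, each of which contains the next. TCACGTGA was found in windows of 5 of the 28 genes (17.9%): Ctsa, Ctsd, Mcoln1, Atp6v0d1 and Atp6v1a. It was found in 0.974% of all windows of the same length and for 1.99% of the genes tested on the array. CACGTG was found for 9 of the 28 (32.1%), against 10.8% of the genes tested. The longer palindrome with G before and C after TCACGTGA was in none of the 28, against 0.707% of the genes tested. A match is a stretch of letters and not a measured binding site. The windows shown are those of 3 genes with TCACGTGA whose level rose on average in the tumour (Ctsa, Ctsd, Atp6v1a), of Lamp1, which held 4 separate matches to TCACGTG, and of Cd63, which rose most and had no match. Grn and Lamp2 also rose on average and had no match, and Ctsb, Ctsh and Asah1 rose but have no window. Mcoln1 and Atp6v0d1 hold TCACGTGA and did not pass on average on the probe used. A second window of Ctsa, not shown, had no match. A link between match and rise was not tested. Capitals mark TCACGTGA, or TCACGTG on either strand where the window lacks the longer word; shorter matches beside it stay in lower case. The Ctsa window lies at chr2:164833523-164833822 (plus strand), with its matches ending 6 bases before and beginning 5 bases into the transcript. The Ctsd window is chr7:142387778-142388077 (minus strand), with its match at 99 to 92 bases before the start, and the Atp6v1a window is chr16:44139210-44139509 (minus strand), with its match at 132 to 125 bases before it. Those of Lamp1 and Cd63 are chr8:13158911-13159210 (plus strand) and chr10:128909095-128909394 (plus strand).
Ctsa: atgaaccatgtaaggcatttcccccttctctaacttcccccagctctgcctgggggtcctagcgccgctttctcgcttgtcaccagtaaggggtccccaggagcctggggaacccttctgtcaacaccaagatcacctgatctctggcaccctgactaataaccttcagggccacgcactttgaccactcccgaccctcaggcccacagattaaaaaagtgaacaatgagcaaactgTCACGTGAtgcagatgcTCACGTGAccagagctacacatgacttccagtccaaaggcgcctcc
Ctsd: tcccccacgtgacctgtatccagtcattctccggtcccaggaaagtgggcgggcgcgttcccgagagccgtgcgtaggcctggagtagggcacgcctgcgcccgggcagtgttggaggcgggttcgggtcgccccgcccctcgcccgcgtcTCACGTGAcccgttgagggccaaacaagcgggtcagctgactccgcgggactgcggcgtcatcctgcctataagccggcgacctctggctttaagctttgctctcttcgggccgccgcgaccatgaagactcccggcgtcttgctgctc
Atp6v1a: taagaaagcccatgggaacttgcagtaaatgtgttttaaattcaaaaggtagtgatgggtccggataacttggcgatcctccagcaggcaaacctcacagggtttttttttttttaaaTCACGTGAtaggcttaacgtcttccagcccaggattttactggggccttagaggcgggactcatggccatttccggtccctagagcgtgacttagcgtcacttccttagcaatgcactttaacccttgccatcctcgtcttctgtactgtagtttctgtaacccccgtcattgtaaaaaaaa
Lamp1: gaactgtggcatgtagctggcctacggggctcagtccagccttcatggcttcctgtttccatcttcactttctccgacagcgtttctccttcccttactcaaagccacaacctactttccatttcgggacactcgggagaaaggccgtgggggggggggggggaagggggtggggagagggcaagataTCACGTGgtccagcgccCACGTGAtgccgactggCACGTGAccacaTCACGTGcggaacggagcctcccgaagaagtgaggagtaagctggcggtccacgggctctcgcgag
Cd63: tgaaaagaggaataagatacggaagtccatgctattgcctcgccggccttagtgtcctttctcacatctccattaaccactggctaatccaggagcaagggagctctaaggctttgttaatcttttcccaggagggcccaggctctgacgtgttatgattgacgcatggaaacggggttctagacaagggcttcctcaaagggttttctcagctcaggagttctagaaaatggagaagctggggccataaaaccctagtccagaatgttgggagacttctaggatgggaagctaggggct

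Levels are given as log2 normalized intensity, on which the lowest detected signals lay at 4.20 to 4.25, and are compared between groups for 1 gene at a time, never between genes. On all arrays 26 of the 32 genes were detected, and the other 6 on fewer, Ctsh (cathepsin H) on the fewest with 11. Between 38.0% and 45.2% of all probes were detected on an array. Raw signals averaged 146.5 in tumour Treg, while the means of the other 5 groups were 127.2 to 130.6. The sorts were checked on their defining genes: Cd3e lay at group means of 10.2 to 10.4 in all 6 groups, Cd8b1 at 11.0 and 11.1 in CD8 cells and at 6.08 to 6.58 in the others, and Cd4 at 4.28 and 4.35 in CD8 cells and at 8.22 to 8.83 in the others. Of the 4 detected Foxp3 probes, 1 separated the populations, at 8.24 to 9.32 on the 6 Treg arrays and 4.07 to 4.41 on the 12 others, while the brightest did not. Il2ra, which encodes CD25, did not pass between Treg and Tconv on the probe used. Its log2 difference between them was 0.23 in tumour (limma adjusted p = 0.514) and 0.06 in spleen (adjusted p = 0.981). In tumour the Treg arrays lay above the Tconv arrays without overlap, whereas in spleen they overlapped. The probe was detected on no array of tumour Tconv or of either CD8 group, so background limits the size of its differences.

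Summed markers of myeloid cells and of melanocytes and melanoma were higher on the tumour arrays, and their values stand beside every result below. Of 21 macrophage and monocyte markers 18 were tested, and their summed intensity was 1063 to 2850 on the 9 tumour arrays and 75.9 to 897 on the 9 spleen arrays. In Treg, Tconv and CD8 cells 3, 3 and 4 of the 18 rose (5, 5 and 7 with the BeadChip as a block). Averaged over the populations 11 did (12 with the block), among them Cd68, a lysosomal membrane protein of macrophages (1.59 ± 0.26, adjusted p = 0.00153). Within this list, Itgam, which encodes CD11b, had group means of 4.13 to 4.43 and Cd14 of 4.11 to 4.34, near the lowest detected signal in tumour and spleen alike. The list as a whole differed from these: 15 of the 18 markers were detected on every array of each tumour group. In spleen Treg, Tconv and CD8 cells 4, 4 and 2 were. Summed melanocyte and melanoma markers (9 of 12 tested) reached 340.3 to 1173 in tumour and 33.5 to 112.6 in spleen, and 4, 1 and 1 of them rose in the 3 populations (3, 1 and 1 with the BeadChip as a block). In Treg these were Dct, Pmel, Tyrp1 and Gpnmb. Tyrp1 was detected on no spleen array, so it met the detection filter only through tumour arrays and could not have passed as falling. In Tconv and CD8 cells the gene was Gpnmb (4.59 and 4.46, limma adjusted p = 1.49e-06 and 5.25e-06), which macrophages also express. In CD8 cells Pmel was at 1.37 (adjusted p = 0.338) and Tyrp1 at 0.09 (adjusted p = 0.964). The erythroid list went the other way, at 2673 to 12160 in spleen and 8.04 to 1342 in tumour; 3, 1 and 1 of its 5 tested genes fell (4, 3 and 3 with the BeadChip as a block). The 32 lysosomal genes summed to 12520 to 16410 in tumour and 11010 to 12920 in spleen. The part of these other cells in the results was not tested, and in bulk samples fewer cells of a type and less RNA per cell cannot be told apart.

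**Figure D1:**
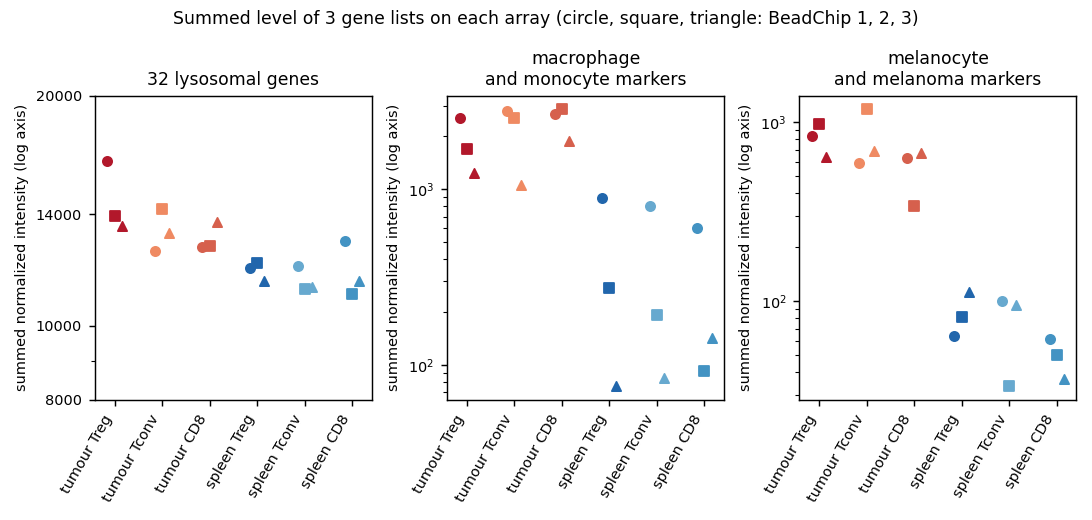
Summed normalized intensity (log axis) of the 32 lysosomal genes, of 18 macrophage and monocyte markers and of 9 melanocyte and melanoma markers on each of the 18 arrays, by group; the symbol gives the BeadChip. Tumour arrays lie above spleen arrays in both marker lists without overlap, whereas the lysosomal sums overlap, at 12520 to 16410 in tumour and 11010 to 12920 in spleen. That overlap comes from spleen CD8 array 1 (12920), as the other spleen arrays reach 12100 at most.

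The first comparison asks how the lysosomal genes of T cells in the tumour differ from those of the same population in the spleen. Within each population 2 of the 32 genes rose and none fell, by limma with p-values adjusted over all 14581 genes by Benjamini-Hochberg. In Treg these were Cd63 and Ctsd, against 2.44% of all genes called (1.73% higher). In Tconv they were Cd63 and Grn, against 1.19% of all genes (0.994% higher), and in CD8 cells Cd63 and Ctsb, against 1.17% (0.878% higher). When the 3 populations were averaged, 9 of the 32 rose and none fell, against 5.21% of all genes called and 3.45% called higher. These 9 were Cd63, Grn, Ctsb, Ctsd, Lamp2, Asah1, Atp6v1a, Ctsa and Ctsh. Ctsh was detected on all 9 tumour arrays but 2 spleen arrays, so it met the detection filter only through the groups where it is high; without it the count is 8. The unadjusted p was under 0.05 for 11, 7, 7 and 14 of the 32. The share of all genes under this unadjusted threshold is not given here. No excess can therefore be read from these counts or from the unadjusted counts further below. In CD8 cells 5 genes passed without BeadChip 1 (Ctsb, Ctsz, Grn, Cd63 and Atp6v1a) and 4 without spleen CD8 array 1 (the same but for Atp6v1a). On average 3 passed without BeadChip 2 (Ctsd, Grn and Cd63) or BeadChip 3 (Ctsh, Asah1 and Cd63). The shares of all genes given above belong to the main fit, and those of these refits are not given here.

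Over the whole list the differences were small. The median log2 difference of the 32 genes between tumour and spleen was 0.32 in Treg, 0.23 in Tconv, 0.24 in CD8 cells and 0.23 on average, while the median over all genes lay between -0.02 and 0.00. Taken BeadChip by BeadChip, the list's median difference was 0.30, 0.38 and 0.35 in Treg, 0.10, 0.35 and 0.22 in Tconv, and 0.05, 0.33 and 0.19 in CD8 cells. In Treg 18 of the 32 genes were higher in tumour on every BeadChip (18.9% of all genes were) and 2 lower (18.8%). The same count was 8 higher (15.2%) and 2 lower (16%) in Tconv, and 14 higher (13.8%) and 2 lower (15.1%) in CD8 cells. With median scaling between arrays in place of quantile normalization, the median of all genes in Treg moved to 0.13 and that of the 32 lysosomal genes to 0.70.

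**Figure D2:**
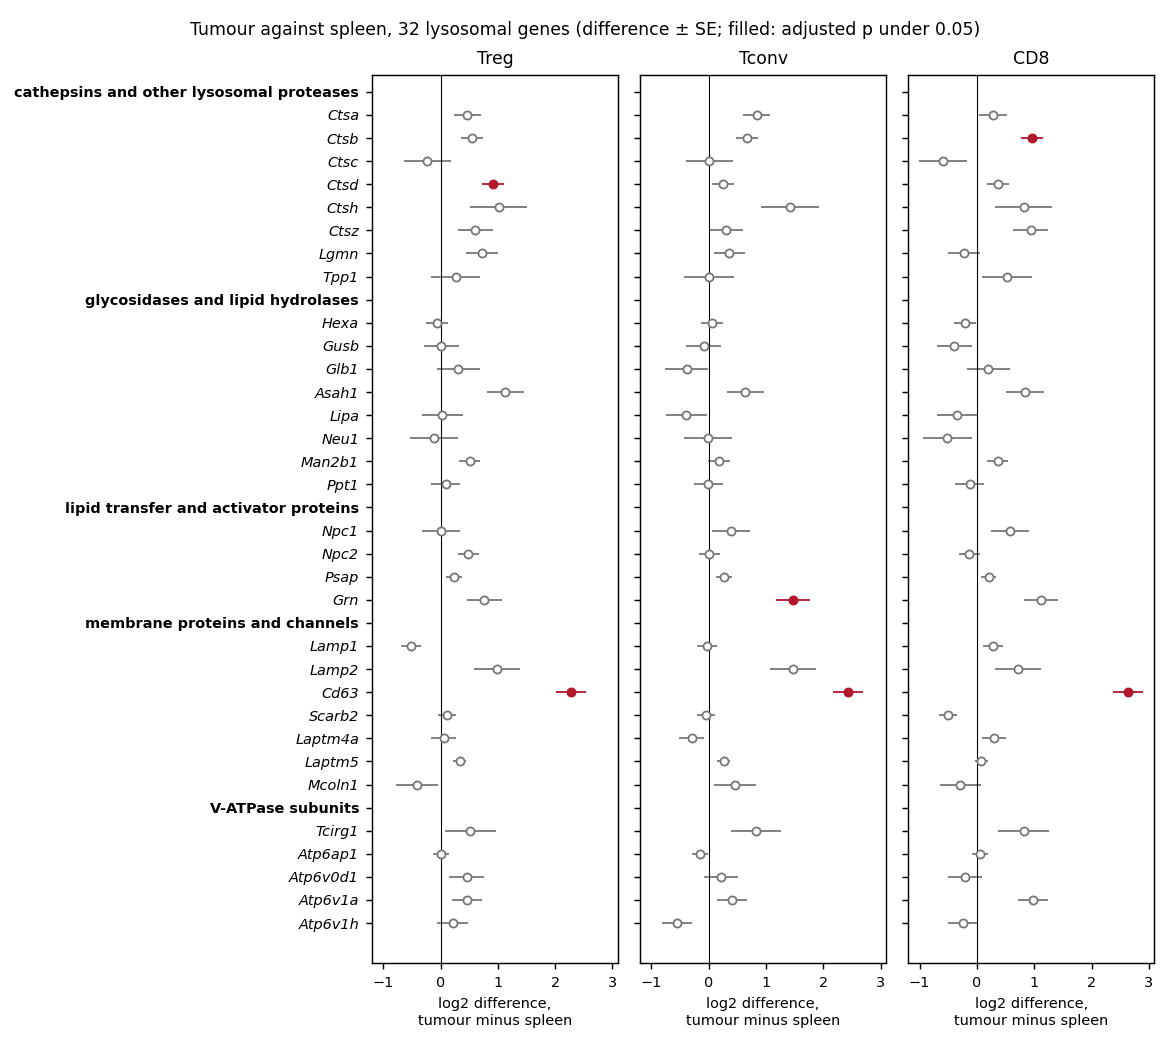
Log2 difference between tumour and spleen (± SE, n = 3 arrays in each group) of the 32 lysosomal genes, ordered by role, in Treg, Tconv and CD8 cells; filled red points passed the test at an adjusted p of 0.05. Cd63 lies at 2.28 to 2.64 in all panels, while most other genes lie within 1 of zero.

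Groups that did not overlap were counted as a second description. In Treg the 3 tumour arrays lay above the 3 spleen arrays for 13 of the 32 genes (10.2% of all genes) and below for Lamp1 (9.74%). In Tconv this held for 8 genes higher (7.52%) and for Atp6v1h lower (7.22%), and in CD8 cells for 6 higher (6.69%) and for Gusb and Scarb2 lower (6.8%). Over all populations, Cd63 was the single gene of the 32 whose 9 tumour arrays all lay above its 9 spleen arrays, which was so for 0.473% of all genes, and none had all tumour arrays below (0.0686%). The 3 comparisons use separate arrays, but the average is built from the same arrays as they are.

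**Figure D3:**
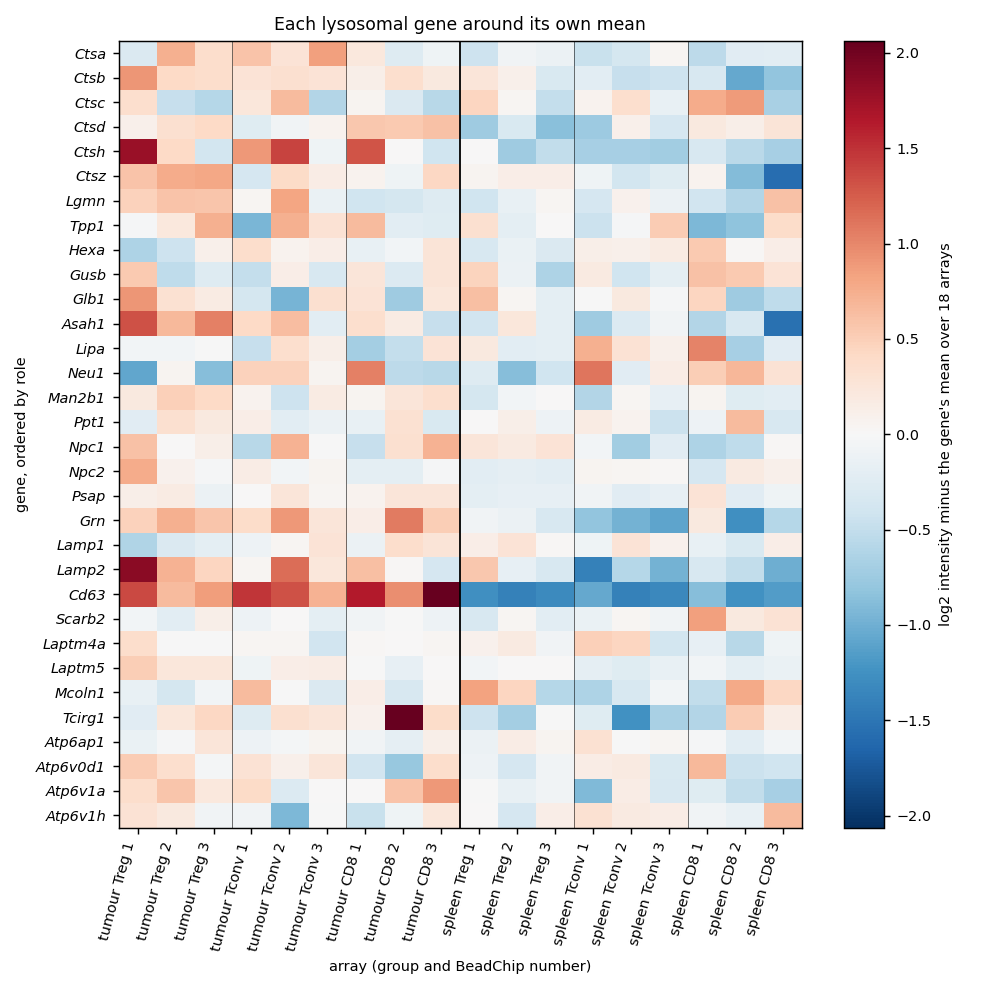
Log2 intensity of each of the 32 lysosomal genes minus its own mean over the 18 arrays (colour, up to the largest deviation in either direction), with genes in order of role and arrays by group and BeadChip. The Cd63 row is red on all 9 tumour arrays and blue on all 9 spleen arrays; the Lamp2, Grn and Ctsb rows show the same split less fully.

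Cd63, a tetraspanin of late endosomes, lysosomes and secretory granules, showed the largest difference among the membrane proteins. Its 3 tumour arrays, in the order of the BeadChips, read 7.24, 6.53 and 6.74 in Treg, 7.36, 7.20 and 6.60 in Tconv, and 7.51, 6.83 and 7.94 in CD8 cells. On the spleen arrays it read 4.61, 4.49 and 4.56 in Treg, 4.83, 4.49 and 4.55 in Tconv, and 5.00, 4.64 and 4.72 in CD8 cells. The spleen values thus lay close to the lowest detected signal, and no tumour array came near them. Cd63 rose by 2.28 ± 0.26 in Treg (4.85-fold, adjusted p = 1.38e-04), by 2.43 ± 0.26 in Tconv (5.39-fold, adjusted p = 1.17e-04) and by 2.64 ± 0.26 in CD8 cells (6.24-fold, adjusted p = 7.09e-05). Averaged, the rise was 2.45 ± 0.15 (5.47-fold, adjusted p = 1.05e-07). It passed without any single BeadChip or array, and missed the threshold in CD8 cells when the 6 CD8 arrays were fitted alone (adjusted p = 0.0608).

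Lamp2, whose product lines the lysosome and serves chaperone-mediated autophagy, rose on average. On the 9 tumour arrays it ran from 7.68 through a median of 8.48 to 9.88, and on the 9 spleen arrays from 6.63 through 7.53 to 8.58, so the ranges overlap. The average rise was 1.06 ± 0.23 (2.08-fold, adjusted p = 0.0122) and was lost without BeadChip 2 or 3 (adjusted p = 0.105 to 0.151). In Tconv, where its difference was largest, the tumour arrays at 8.07, 9.18 and 8.27 lay above the spleen arrays at 6.63, 7.44 and 7.05, with a difference of 1.47 ± 0.40 (adjusted p = 0.109). With the mean of its probes Lamp2 passed in Tconv (0.59, adjusted p = 0.0466) and in Treg (0.72, adjusted p = 0.00762), and with median scaling in Treg (1.46, adjusted p = 0.0445).

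Lamp1, the other abundant glycoprotein of the lysosomal membrane, did not pass in any comparison. In tumour Treg it read 8.25, 8.56 and 8.67 and in spleen Treg 9.00, 9.14 and 8.89, a difference of -0.52 ± 0.17 (adjusted p = 0.183). In CD8 cells it was 0.28 ± 0.17 (adjusted p = 0.597), and the Treg and CD8 differences themselves differed by -0.80 ± 0.25, which did not pass either (adjusted p = 0.300). The difference in Treg was below zero on all BeadChips and that in CD8 cells above zero on all of them. The lipid-handling receptor Scarb2, which carries glucocerebrosidase to lysosomes, the small transmembrane proteins Laptm4a and Laptm5, and the calcium channel Mcoln1 had average differences that did not pass. Laptm5, a protein of blood cells that promotes degradation of antigen receptors, lay higher in tumour without overlap in Treg, at 12.17, 11.89 and 11.89 against 11.60, 11.67 and 11.67, a difference of 0.33 ± 0.11 that did not pass (adjusted p = 0.185). Its average difference of 0.22 ± 0.06 (adjusted p = 0.0649) passed without background correction, with an offset of 50, on the authors' normalized values, with each gene at the mean of its probes and with no detection filter (adjusted p = 0.0118 to 0.0443). Laptm5 itself has 1 probe, so no further probe of it enters under the mean. Its Treg difference passed without background correction (adjusted p = 0.0462).

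Among the proteases, 4 of 8 tested rose on average (Ctsb, Ctsd, Ctsa and Ctsh). The median difference of the 8 was 0.58 in Treg, and it was 0.33 in Tconv and 0.45 in CD8 cells. Ctsb (cathepsin B, a cysteine protease) ran from 9.24 through a median of 9.45 to 10.03 in tumour and from 8.06 through 8.79 to 9.37 in spleen, with an average rise of 0.73 ± 0.11 (1.65-fold, adjusted p = 9.99e-04). Its tumour arrays lay above the spleen arrays within each population. In CD8 cells they read 9.24, 9.47 and 9.32 against 8.79, 8.06 and 8.30, a rise of 0.96 ± 0.20 (adjusted p = 0.0261). That CD8 call was lost without BeadChip 2 or 3, any tumour CD8 array, or spleen CD8 array 2 or 3 (adjusted p = 0.0594 to 0.38), with the CD8 arrays fitted alone (adjusted p = 0.265), with median scaling (adjusted p = 0.138) and with the mean of its probes (adjusted p = 0.691). The average call was lost without BeadChip 2 or 3 (adjusted p = 0.0659 to 0.074).

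Ctsd (cathepsin D, an aspartic protease that activates other lysosomal enzymes) rose in Treg. The tumour Treg arrays read 6.38, 6.61 and 6.69 and the spleen Treg arrays 5.54, 5.96 and 5.42, without overlap. The rise was 0.92 ± 0.19 (1.89-fold, adjusted p = 0.0150). It was lost without any BeadChip, spleen Treg array 1 or 3, or tumour Treg array 2 or 3 (adjusted p = 0.0588 to 0.433), and with the Treg arrays fitted alone (adjusted p = 0.0762). Averaged over the populations Ctsd ran from 6.03 through 6.61 to 6.88 in tumour and from 5.42 through 5.96 to 6.54 in spleen, a rise of 0.51 ± 0.11 (adjusted p = 0.0113), lost without BeadChip 1 or 3 (adjusted p = 0.0798 to 0.283). Spleen CD8 cells, at 6.47, 6.39 and 6.54, lay within the range of the tumour arrays.

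Ctsa (cathepsin A, a carboxypeptidase that protects neuraminidase and beta-galactosidase) ran from 6.63 through 7.22 to 7.79 in tumour and from 6.39 through 6.71 to 6.98 in spleen. Its average rise of 0.53 ± 0.14 (adjusted p = 0.0389) passed in 4 of 21 refits without a BeadChip or array, those without tumour Treg array 1, tumour Tconv array 2, tumour CD8 array 2 or spleen Tconv array 3, and otherwise had an adjusted p of 0.0509 to 0.246. Ctsh (an aminopeptidase) was not detected on any spleen Tconv array, with means of 5.52 ± 0.75 (SD, n = 3) in tumour Tconv and 4.10 ± 0.02 in spleen Tconv, at least 2.46-fold higher in tumour by the bound set by the lowest detected signal (adjusted p = 0.311). Its average difference was 1.08 ± 0.29 (adjusted p = 0.0423), which, for a gene kept only through its tumour arrays, had to be positive; it passed in 5 of 21 refits, without BeadChip 3, any tumour array of BeadChip 3 or spleen Treg array 1, and otherwise had an adjusted p of 0.0535 to 0.375. Its tumour arrays of BeadChip 3 (4.42, 4.70 and 4.38) were the lowest of each population. The dipeptidyl peptidase Ctsc, the carboxypeptidase Ctsz, the asparaginyl endopeptidase Lgmn and the tripeptidyl peptidase Tpp1 did not pass in any comparison. Ctsz came closest on average (adjusted p = 0.0578) and passed with median scaling, without background correction, with an offset of 50, on the authors' values and over genes detected on at least 9 arrays (adjusted p = 0.0393 to 0.0488).

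Of the 8 glycosidases and lipid hydrolases, Asah1 alone rose on average; the median difference of the group was 0.06 in Treg, and it was -0.01 in Tconv and -0.17 in CD8 cells. Asah1 encodes acid ceramidase, which cleaves ceramide to sphingosine. In Treg its tumour arrays read 7.67, 7.03 and 7.39 and its spleen arrays 5.95, 6.59 and 6.15, without overlap, a difference of 1.13 ± 0.33 that did not pass (adjusted p = 0.107). Averaged, it ran from 5.87 through 6.77 to 7.67 in tumour and from 4.82 through 6.02 to 6.59 in spleen and rose by 0.87 ± 0.19 (1.83-fold, adjusted p = 0.0126), lost without BeadChip 1 or 2 (adjusted p = 0.0817 to 0.233). The Treg difference passed with median scaling (1.58, adjusted p = 0.00723), without background correction (0.71, adjusted p = 0.0384) and on the authors' normalized values (0.70, adjusted p = 0.0308). Hexa, Gusb, Glb1 and Man2b1, which trim sugars from glycolipids and glycoproteins, the sialidase Neu1, the lipase Lipa and the thioesterase Ppt1 had average differences that did not pass.

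Grn, the precursor of granulins that is required for normal lysosome function, was the member of the lipid transfer and activator group that rose. In Tconv its tumour arrays read 6.90, 7.40 and 6.77 and its spleen arrays 5.71, 5.53 and 5.42, far apart compared with the spread within either group. The rise was 1.47 ± 0.30 (2.77-fold, adjusted p = 0.0255). It was lost without any BeadChip, tumour Tconv array 1 or 2, or any spleen Tconv array (adjusted p = 0.0606 to 0.331), with median scaling (adjusted p = 0.0867) and with the Tconv arrays fitted alone (adjusted p = 0.0504). The average rise of 1.12 ± 0.17 (2.17-fold, adjusted p = 9.99e-04) was lost without BeadChip 3 (adjusted p = 0.0857), with tumour arrays from 6.64 through 7.03 to 7.58 and spleen arrays from 5.25 through 5.93 to 6.72. The saposin precursor Psap and the cholesterol transfer proteins Npc1 and Npc2 did not pass in any comparison. On average Psap passed on the authors' normalized values (0.24, adjusted p = 0.0323), and Npc2 passed in Treg with median scaling (0.79, adjusted p = 0.0471). Psap lay higher in tumour without overlap in Treg (11.56, 11.62 and 11.32 against 11.25, 11.28 and 11.28) and in Tconv (11.46, 11.70 and 11.49 against 11.37, 11.21 and 11.28).

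Of the 5 V-ATPase genes, Atp6v1a, the catalytic subunit that hydrolyses ATP, rose on average. Its tumour arrays ran from 5.07 through 5.71 to 6.24 and its spleen arrays from 4.44 through 5.10 to 5.50, a rise of 0.62 ± 0.15 (1.53-fold, adjusted p = 0.0267). It was lost in 9 of 21 refits (adjusted p = 0.0513 to 0.304), those without BeadChip 2 or 3, tumour Tconv array 1, tumour Treg array 2, tumour CD8 array 2 or 3, spleen Treg array 2 or 3, or spleen CD8 array 3. In CD8 cells the tumour arrays at 5.35, 5.94 and 6.24 lay above the spleen arrays at 5.10, 4.84 and 4.66, a difference of 0.98 ± 0.26 that did not pass (adjusted p = 0.106). Tcirg1, a subunit of the membrane sector, read 7.51 on tumour CD8 array 2 and 4.22 to 5.99 on the 17 others, and did not pass. Atp6ap1, Atp6v0d1 and Atp6v1h did not pass on their brightest probes.

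**Figure D4:**
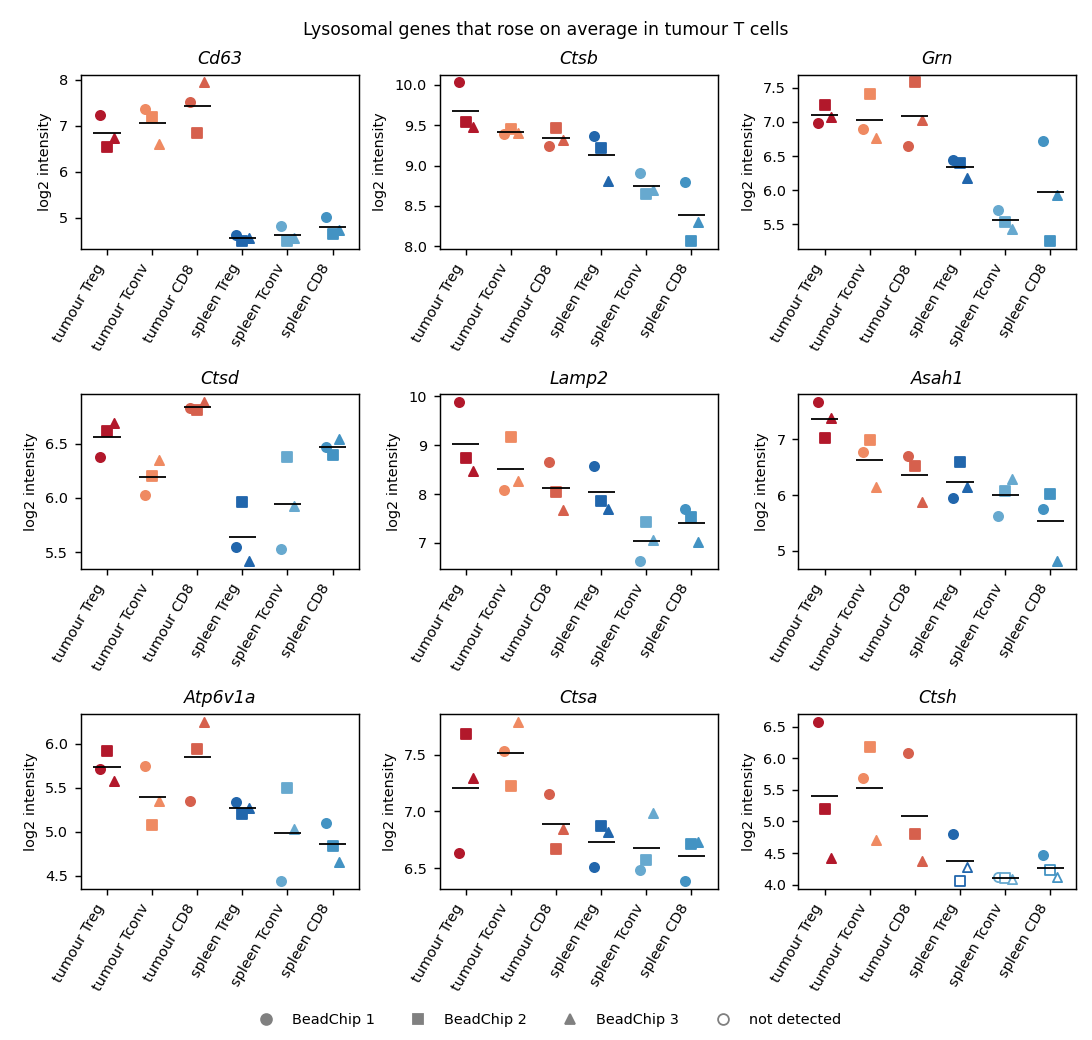
Log2 intensity on each array of the 9 lysosomal genes that rose on average between spleen and tumour, with 3 arrays in each of 6 groups; the symbol gives the BeadChip, open symbols were not detected, and bars are group means. Cd63 separates all 9 tumour from all 9 spleen arrays, whereas the other 8 genes overlap across populations, as for Ctsd, whose spleen CD8 arrays lie among the tumour arrays.

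Where a gene had several detected probes, they did not always give the same difference. This was so for 16 of the 32 genes, while the other 16 had 1 detected probe. A second Cd63 probe, detected on 9 arrays, gave an average difference of 2.52 ± 0.20 (limma adjusted p = 2.29e-06), and the dimmest, detected on 7, gave 0.18 ± 0.14 (adjusted p = 0.641). For Lamp2, 1 of the 6 dimmer probes passed on average (0.79 ± 0.13, adjusted p = 0.00239), and the same probe passed in Treg (1.15 ± 0.23, adjusted p = 0.0157). The dimmer Ctsb probe, detected on 7 arrays, gave -0.35 ± 0.38 (adjusted p = 0.743), and the 4 dimmer Ctsa probes -0.05 to 0.20, none of which passed. The reverse held for Atp6v0d1, a membrane sector subunit, whose brightest probe gave 0.45 ± 0.30 in Treg (adjusted p = 0.694) while 2 of its 3 dimmer probes passed there, at 0.76 ± 0.18 (adjusted p = 0.0388) and 1.42 ± 0.32 (adjusted p = 0.0339). Here p-values were adjusted over all 27474 detected probes. Which transcripts each probe reads was not tested.

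**Figure D5:**
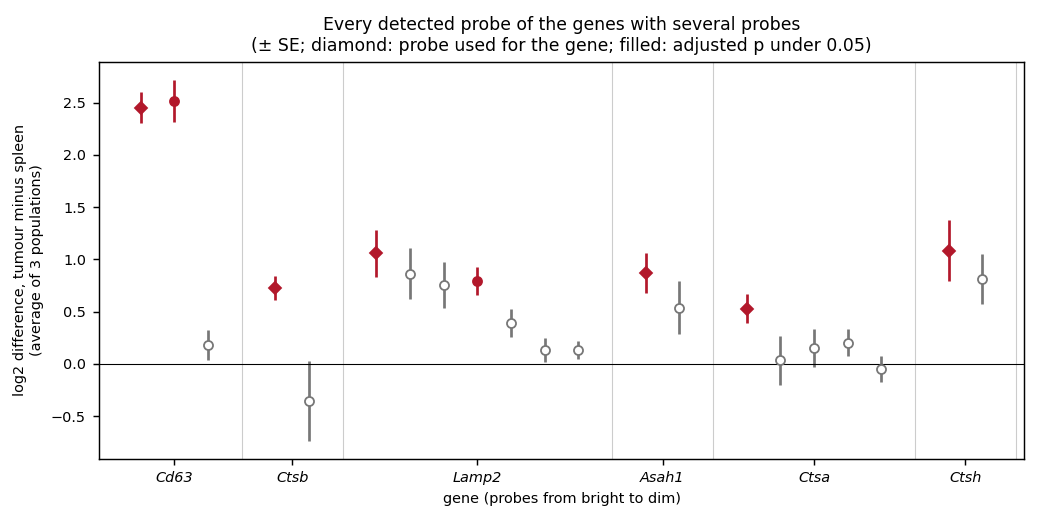
Average log2 difference between tumour and spleen (± SE) of every detected probe of the 6 genes that rose on average and had several probes, from the brightest to the dimmest; diamonds mark the probe used for the gene and filled red points passed at an adjusted p of 0.05. The dimmest Cd63 and Ctsb probes lie at 0.18 and -0.35, away from the brightest at 2.45 and 0.73.

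The second set of comparisons asks whether the populations differ within a tissue. None of the 32 genes passed by limma between Treg and Tconv in tumour or spleen or between CD8 cells and Tconv in either. Of all genes, 1.9% passed as higher in Treg than in Tconv of the tumour and 0.823% as lower (2.72% together), and 1.09% and 0.508% in the spleen (1.6%). For CD8 cells against Tconv the shares were 0.309% and 0.213% in tumour (0.521%) and 0.528% and 0.288% in spleen (0.816%). The unadjusted p was under 0.05 for 7, 2, 2 and 3 of them. Between tumour Treg and tumour Tconv, Asah1 passed with median scaling, and Hexa, lower in Treg by -0.72 ± 0.17, passed without tumour Treg array 3 (limma adjusted p = 0.0431). Groups without overlap were found in tumour for 6 genes higher in Treg than in Tconv (9.67% of all genes), namely Ctsb, Ctsd, Ctsz, Asah1, Man2b1 and Laptm5, and for Lamp1 lower (8.06%). In spleen 5 were higher in Treg (8.5%) and 4 lower (7.07%). Ctsd was the gene that lay higher in CD8 cells than in Tconv without overlap in tumour (6.4% of all genes were so), at 6.83, 6.81 and 6.88 against 6.03, 6.21 and 6.35, and also did so in spleen together with Gusb and Scarb2 (6.78%). Ctsa and Lgmn lay lower in tumour CD8 cells than in tumour Tconv (6.39%), and Atp6ap1 lower in spleen CD8 cells than in spleen Tconv (5.93%).

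The third set asks whether the tumour difference was larger in Treg than in the other populations. None of the 32 genes passed against Tconv (0.0686% of all genes did as higher and 0.0686% as lower, 0.137% together) or against CD8 cells (0.137%, 0.096% and 0.233%), with an unadjusted p under 0.05 for 1 and 4 of them, and none passed in any of 15 refits without a BeadChip or array. For Cd63 the tumour difference in Treg minus that in Tconv was -0.15 ± 0.37 (adjusted p = 0.993), and minus that in CD8 cells -0.36 ± 0.37 (adjusted p = 0.877). The lists of genes that passed in each population therefore do not show that the populations differ.

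Beyond the 33 genes, a wider catalogue of 131 genes of the lysosome was examined, of which 110 were tested: other hydrolases, membrane proteins and transporters, V-ATPase subunits, sorting machinery, regulators and protease inhibitors. Between tumour and spleen 3 rose and 1 fell in Treg (1.73% and 0.713% of all genes), 1 rose in Tconv (0.994%), 1 rose in CD8 cells (0.878%), and 4 rose and 2 fell on average (3.45% and 1.76%). The median difference of the 110 was 0.11, 0.03, 0.06 and 0.07. None of 12 further V-ATPase subunits passed in any comparison. Tfeb, Tfe3 and Mitf, which encode regulators of lysosomal genes, had average differences of -0.04 ± 0.12, 0.41 ± 0.15 and 0.75 ± 0.43, and none passed.

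Gm2a, the activator that presents the ganglioside GM2 to beta-hexosaminidase A, rose in Treg. It read 9.64, 9.76 and 9.71 in tumour Treg and 8.60, 8.77 and 8.92 in spleen Treg, and lay between 8.25 and 8.77 on the 12 arrays of the other populations. The tumour Treg arrays thus stood above every other array. The rise in Treg was 0.93 ± 0.12 (1.91-fold, adjusted p = 3.67e-04), lost without BeadChip 2 (adjusted p = 0.0798), and tumour Treg exceeded tumour Tconv by 1.05 ± 0.12 (adjusted p = 1.30e-04). The tumour difference was larger in Treg than in Tconv by 0.99 ± 0.17 (adjusted p = 0.0323), a call lost with the BeadChip as a block (adjusted p = 0.0652), in all 15 refits without a BeadChip or array (adjusted p = 0.0509 to 0.591) with median scaling (adjusted p = 0.149) and over genes detected on at least 9 arrays (adjusted p = 0.116). Against CD8 cells it was 0.87 ± 0.17 (adjusted p = 0.0544).

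Smpd1 (acid sphingomyelinase, which releases ceramide) rose in Treg by 1.48 ± 0.31 (adjusted p = 0.0182), with tumour arrays at 9.86, 8.89 and 8.83 and spleen arrays at 7.29, 7.89 and 7.96. The call was lost without any BeadChip, tumour Treg array 1 or spleen Treg array 1 (adjusted p = 0.0831 to 0.162), and with the Treg arrays fitted alone (adjusted p = 0.103). Litaf, a membrane protein of late endosomes and lysosomes, rose in Treg by 2.00 ± 0.39 (adjusted p = 0.0114) and in CD8 cells by 2.50 ± 0.39 (adjusted p = 0.00362), and on average by 2.04 ± 0.23 (4.12-fold, adjusted p = 4.70e-05). In tumour Treg, Tconv and CD8 cells it read 8.60 to 9.11, 7.35 to 8.26 and 7.52 to 8.33, and in spleen 6.61 to 7.15, 5.37 to 6.48 and 4.81 to 6.43, apart within each population. Its Treg call was lost without any BeadChip, tumour Treg array 1 or spleen Treg array 2 or 3 (adjusted p = 0.0531 to 0.208), its CD8 call without BeadChip 2 or 3 (adjusted p = 0.0912 to 0.117) and with the CD8 arrays fitted alone (adjusted p = 0.159).

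Igf2r, the receptor that sorts enzymes tagged with mannose 6-phosphate to lysosomes, fell in Treg. It read 8.81, 9.14 and 9.33 in tumour Treg and 10.18, 10.15 and 9.98 in spleen Treg, the highest of all groups. The change in Treg was -1.01 ± 0.16 (adjusted p = 0.00186) and on average -0.52 ± 0.09 (adjusted p = 0.00235). The Treg call was lost without BeadChip 1 or 2 (adjusted p = 0.083 to 0.0998) and with median scaling (-0.54, adjusted p = 0.265), and the average with median scaling (-0.36, adjusted p = 0.189) or without BeadChip 1 or 2 (adjusted p = 0.056 to 0.0781). The smaller receptor M6pr and the Ragulator subunit Lamtor4 were higher in tumour Treg than in tumour Tconv, by 0.87 ± 0.20 (adjusted p = 0.0247) and 0.99 ± 0.22 (adjusted p = 0.0220). The M6pr call was lost in all 9 refits (adjusted p = 0.0542 to 0.236) and the Lamtor4 call in 6, without any BeadChip, tumour Treg array 1 or 2, or tumour Tconv array 3 (adjusted p = 0.0519 to 0.223) and with only the groups compared (adjusted p = 0.0692).

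Of the 4 tested inhibitors of lysosomal proteases, none passed between tumour and spleen in Treg or CD8 cells, 1 rose in Tconv and 2 rose on average (Serpinb6b and Cstb). Serpinb6b, a serpin, rose in Tconv by 1.90 ± 0.28 (3.72-fold, adjusted p = 0.00239) and on average by 1.35 ± 0.16 (adjusted p = 1.02e-04), with tumour Tconv arrays at 8.15, 8.06 and 7.37 and spleen Tconv arrays at 5.97, 5.97 and 5.95. Its Tconv call was lost without BeadChip 2 or 3 (adjusted p = 0.0819 to 0.18). Cst7 (cystatin F, an inhibitor of cathepsins in cytotoxic and myeloid cells) differed between populations. It read 7.21, 7.02 and 6.62 in spleen CD8 cells, 6.51, 6.59 and 6.41 in spleen Treg and 4.76, 4.99 and 4.97 in spleen Tconv. CD8 cells exceeded Tconv by 2.05 ± 0.20 in spleen (adjusted p = 5.61e-05) and 2.04 ± 0.20 in tumour (adjusted p = 4.89e-05), and Treg exceeded Tconv by 1.60 ± 0.20 (adjusted p = 2.99e-04) and 1.30 ± 0.20 (adjusted p = 0.00133). Both Treg calls were lost without BeadChip 2 (adjusted p = 0.0582 in spleen and 0.112 in tumour). Its average tumour difference was 0.05 ± 0.11 (adjusted p = 0.894).

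Ctsw (cathepsin W, a protease of cytotoxic lymphocytes) was higher in CD8 cells than in Tconv. It read 8.58, 8.61 and 8.33 in tumour CD8 cells and 6.69, 6.36 and 6.29 in tumour Tconv, a difference of 2.06 ± 0.33 (adjusted p = 0.00619), lost without BeadChip 2 or 3 (adjusted p = 0.106 to 0.35). In spleen the difference was 2.28 ± 0.33 (adjusted p = 0.00191), lost without BeadChip 3 (adjusted p = 0.172). Rragd, a Rag GTPase of the nutrient-sensing complex, was not well above background on any spleen Tconv array and was at least 2.07-fold higher in spleen Treg (adjusted p = 0.00777), a call lost without any BeadChip or spleen Treg array 1 (adjusted p = 0.05 to 0.192). Igf2r was higher in spleen Treg than in spleen Tconv by 0.70 ± 0.16 (adjusted p = 0.0343), lost in all 9 refits (adjusted p = 0.0599 to 0.549) and with median scaling, detection on at least 9 arrays, the mean of its probes and only the groups compared (adjusted p = 0.326, 0.0599, 0.565 and 0.0992). On average, the cathepsin inhibitor Cstb rose by 0.59 ± 0.15 (adjusted p = 0.0341) and the cation channel Tpcn1 changed by -0.74 ± 0.19 (adjusted p = 0.0318), each lost in 13 of 21 refits (adjusted p of 0.0501 to 0.293 and 0.0512 to 0.208) and with no detection filter (0.0541 and 0.0555). Tpcn1 was also lost with median scaling (-0.52, adjusted p = 0.249) and with the mean of its probes (-0.32, adjusted p = 0.166), its dimmer probes being at -0.19 and -0.04.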

How the data were processed

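RNA of sorted T cells was measured on 18 Illumina BeadChip arrays. The authors deposited, per the file headers, a mean bead intensity and a detection p-value for each of 46237 probes on each array, not normalized. They also deposited a table of normalized intensity values (array medians 83.5 to 85.9), whose ranks matched the signals (correlation at least 0.999) and whose method and centring are not given in the sources used here. Background correction, quantile normalization and the log2 step on the deposited intensity values used the function neqc (limma 3.58.1, R 4.3.3) with the detection p-values and an offset of 16.

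Probes were named from the platform annotation: 35784 had 1 gene, 10453 none and 0 several. Names were updated to RefSeq by Entrez identifier (28620 probes) or accession (2637), or kept as given (4527). Probes detected at p under 0.05 on at least 3 arrays were kept (27474, of which 22409 were named), and the brightest one represented a gene. One linear model over the 6 groups of 3 arrays (12 residual degrees of freedom) gave 10 comparisons by limma, with Benjamini-Hochberg adjustment over 14581 genes and a threshold of 0.05. The average is the mean of the differences in the 3 populations. A log2 difference is on the scale with the offset and understates changes of dim genes. A bound ("at least") sets the bright group against the lowest detected signal on each array. Median raw signals were 79 to 88.1 an array, and 3 arrays a group limit the precision.

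The replicate number marks the BeadChip. Deviations from group means of samples on the same BeadChip correlated at 0.0424 on average (45 pairs, 5 above 0.1), against -0.0208 for others, and a fit with the BeadChip as a block was run as an alternative. The others were median scaling, no background correction, an offset of 50, no detection filter or detection on at least 9 arrays, the mean of a gene's probes, adjustment over all probes, the authors' normalized values, fits of only the groups compared, and leaving out each BeadChip or array. The same settings were applied to the other lists after the data were seen. The procedure was tested on simulated data.

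All 19 lists, among them those that make up the 33 genes, were chosen with earlier results of these data known. Values on every array are given for the members past the threshold and for the 3 smallest p-values in each tumour comparison, and up to 4 genes are named from each other list; further genes in the text were chosen after their values were seen.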

Additional observations from a re-analysis of the deposited data

Results flagged for a closer look

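Gm2a drew attention because the tumour difference in Treg differed from that in Tconv by a test of the difference itself, by 0.99 on the log2 scale, in a call that all 15 refits without a BeadChip or array lost.

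Lamp1 moved in opposite directions on every BeadChip: the tumour minus spleen difference was -0.52 in Treg (-0.75, -0.58 and -0.22 by BeadChip) and 0.28 in CD8 cells (0.04, 0.68 and 0.13). The test of the difference between these did not pass (limma, -0.80, adjusted p = 0.300).

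Laptm4a did so between Tconv, at -0.29 (-0.46, -0.41 and -0.02), and CD8 cells, at 0.30 (0.19, 0.57 and 0.13). Here the difference between the populations was not tested.

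Mmp9, on the list of neutrophil markers, had a tumour difference that was larger in Treg than in Tconv by 2.82 and than in CD8 cells by 2.91 on the log2 scale, by the test of each difference (limma adjusted p = 0.0197 and 0.0128).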

How the results depend on the processing

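With 3 arrays a group, every call rests on few samples. The number of all genes called under each setting is not given beside the counts below. A higher or lower count is therefore not read as a result about the lysosomal genes. The count of the 32 lysosomal genes that rose in Treg, 2 in the analysis reported, was 5 with median scaling (Ctsd, Asah1, Npc2, Lamp2 and Cd63), 4 without background correction, 4 with the mean of detected probes, 3 on the authors' normalized values (Ctsd, Asah1 and Cd63) and 1 with only the groups compared. In Tconv it was 1 instead of 2 with median scaling and with only the groups compared, and 3 with the mean of probes (Grn, Lamp2 and Cd63). In CD8 cells it was 1 instead of 2 with median scaling and with the mean of probes, and 0 with only the groups compared. Between Treg and Tconv in tumour it was 1 instead of 0 with median scaling. The average gave 8 to 11 genes instead of 9 under the other settings (8 with no detection filter, where Ctsa and Ctsh were lost and Laptm5 gained), and was not run with only the groups compared, since it uses all groups. Leaving out a BeadChip or an array gave 1 to 2 genes in Treg, 1 to 2 in Tconv, 1 to 5 in CD8 cells (5 without BeadChip 1, 4 without spleen CD8 array 1), 3 to 9 on average (3 without BeadChip 2 or 3), and 0 to 1 between Treg and Tconv in tumour. The replicate block (BeadChip) left the counts of lysosomal genes at 2, 2, 2 and 9. Beside the Gm2a interaction and the list counts given with it above, it changed the further hydrolases on average from 1 to 2. It also changed those higher in spleen Treg than in spleen Tconv from 0 to 1. The dendritic cell marker Ccr9, higher in spleen CD8 cells than in spleen Tconv (limma adjusted p = 0.0326), was lost with the block. No other call of a named lysosomal gene changed. Of the average calls, Ctsh missed the threshold without background correction, with an offset of 50, on the authors' values and without a detection filter (limma adjusted p = 0.0657, 0.087, 0.0674 and 0.078), Ctsa without a filter and with the mean of probes (0.0584 and 0.415), and Ctsb with the mean of probes (0.723). None of the called differences of the 32 genes changed sign under these settings; of those not called, 8 average differences did with median scaling (Hexa, Gusb, Ppt1, Lamp1, Scarb2, Mcoln1, Atp6ap1 and Atp6v1h), as did 3 with the mean of probes (Ctsc, Gusb and Glb1). The causes were not tested.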

Other observations

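Of the marker lists not described above, averaged over the populations, 1 of 5 tested neutrophil markers rose (Mmp9, by 0.91, limma adjusted p = 0.0071) and 1 of 3 B cell markers fell (Cd79b, at -1.49, adjusted p = 0.00217). By population Mmp9 rose in Treg by 2.82 (adjusted p = 1.27e-04) and was at 0.01 in Tconv and -0.09 in CD8 cells. None of 7 dendritic cell or 4 NK cell markers passed by limma on average (unadjusted p under 0.05 for 2 and 0). Within Treg the dendritic cell marker Zbtb46, not detected in spleen Treg, rose by 0.99 (adjusted p = 0.0122). Tumour Treg also exceeded tumour Tconv in Zbtb46 by 1.03 (adjusted p = 0.00902). Zbtb46 was detected in no group but tumour Treg, so it met the detection filter only through the group where it is high. Both of these differences therefore had to be positive. Ccr9 fell in CD8 cells, at -0.63 (adjusted p = 0.0283). The count of dendritic cell markers called changed in 2 of 10 alternatives in Treg and in 5 of 10 in CD8 cells. Of 8 tested T cell and sorting markers, Foxp3 was the 1 that passed, at -0.60 (adjusted p = 0.0467) on its brightest probe, which did not separate Treg from the other populations. That call was lost with the BeadChip as a block, in 5 of 9 alternatives in all, and passed in 4 of 21 refits without a BeadChip or array. Mmp9, Cd79b, Foxp3, Zbtb46 and Ccr9 are named after their values were seen.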
